A study of Mus musculus with 6 samples.

Results

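Clear cells are the proton-secreting cells of the epididymis, the long coiled tube that carries sperm from the testis and in which they mature. The caput is the proximal end of that duct and the cauda, where sperm are stored, its distal end. The comparison described here is of EGFP-sorted cells from these ends, 2 libraries from caput (caput 1 and 2) against 2 from cauda (cauda 1 and 2), which are 4 of the 6 libraries of the series. The members are chosen by the region named in the sample titles. All 4 libraries came from untreated mice aged 12 weeks that carry EGFP under the promoter of Atp6v1b1, the gene of a subunit of the vacuolar proton pump (V-ATPase), and cells were sorted and then sorted again. Each library pooled 12 epididymides, and it is not stated whether the pools of a region came from different mice. The p-values therefore reflect the spread between libraries only, which may be technical. The 2 corpus libraries, from the middle of the duct, entered the fit for its estimate of the spread. They also entered the choice of genes to test and the scaling of the libraries.

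The duct is lined by principal cells, basal cells and clear cells, and each stretch has its own gene programme. Clear cells, like the intercalated cells of the kidney, depend on the transcription factor Foxi1 and acidify the fluid around the sperm. Pumps and defence genes are the best known parts of these cells, and the account below turns to other functions: signalling between cells, gene control, protein production, metabolism, transport, and the cell surface.

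Reads in genes ranged from 20724911 to 24700717 in the 4 libraries. Levels are given as RPKM, reads scaled to gene length and to the TMM-scaled library size, with library 1 before library 2 and, in pairs of values with no region named, caput before cauda. Changes are log2 values of caput minus cauda ± SE from edgeR's quasi-likelihood test, so a negative value is higher in cauda, and a gene counts as higher at one end at a Benjamini-Hochberg adjusted p under 0.05. Of 15816 tested genes, 5363 (33.9%) were higher in caput and 5218 (33%) in cauda, so 66.9% of all genes were called and a list with shares near these does not stand apart from the rest. A change of at least 1 on the log2 scale was reached by 3231 genes in the direction of caput and 3348 in that of cauda, and a change of at least 5 by 207 and 222. The median change over all tested genes was 0.04.

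The markers of the labelled cell type differed between the ends. Foxi1 stood at 1013.9 and 928 RPKM in caput 1 and 2 and at 64.1 and 86.3 RPKM in cauda 1 and 2 (3.69 ± 0.15). Atp6v1b1, whose promoter drives the sorted EGFP, had 171 and 158 RPKM in caput and 8.70 and 12.7 RPKM in cauda. All 8 tested clear cell markers were higher in caput, by 2.25 to 4.39 with a median of 3.60, and none was at 0 in cauda. Their summed level was 6733 and 6504 CPM (the same scale without the division by length) in caput and 524 and 691 CPM in cauda, 10.9 times less in the mean. The 20 principal cell markers summed to 10352 and 11689 CPM in caput and to 146667 and 135648 CPM in cauda, 12.8 times more, with 12 of them higher in caput and 8 in cauda. Aqp9, the water and solute channel of principal cells, had 6.60 and 3.88 RPKM in caput and 53.6 and 52.2 RPKM in cauda. Fewer cells of a type and less RNA per cell cannot be told apart in such bulk libraries, and the part of these marker levels in the results below was not tested.

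In the direction of caput, 307 genes changed by more than any clear cell marker, 1217 lay within the markers' range and 3839 below it. In the direction of cauda, 190 genes changed by more than any principal cell marker, 2224 lay within the range of the 8 principal cell markers higher in cauda (-1.49 to -5.34), and 2804 below it. Of the other marker lists, basal cell genes summed to 221 and 277 CPM in caput and 476 and 364 CPM in cauda, with 7 of 8 higher in caput and 1 in cauda, and Krt5 had 15.6 and 22.7 RPKM in caput against 5.08 and 2.75 RPKM in cauda. Phagocyte genes summed to 29.2 and 16.7 CPM in caput and 30.0 and 24.8 CPM in cauda, with 2 of 11 higher in caput and 1 in cauda, and Ptprc, present in all leukocytes, had 0.325 and 0.618 RPKM and 0.0898 and 0.260 RPKM. Of lymphocyte and endothelial genes 1 of 4 and 1 of 4 were higher in cauda and none in caput (the endothelial median of -0.38 became 0.48 under library totals), and the red blood cell gene was not called. Of the sperm genes 4 of 10 were higher in caput and none in cauda, and they summed to 70.6 and 256 CPM in caput and 63.9 and 117 CPM in cauda, and Prm1, a sperm protamine, had 15.3 and 98.7 RPKM in caput and 0 and 0.234 RPKM in cauda. Fibroblast and smooth muscle genes summed to 591 and 647 CPM in caput and 448 and 536 CPM in cauda, with 6 of 12 higher in cauda and 1 in caput.

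**Figure D1:**
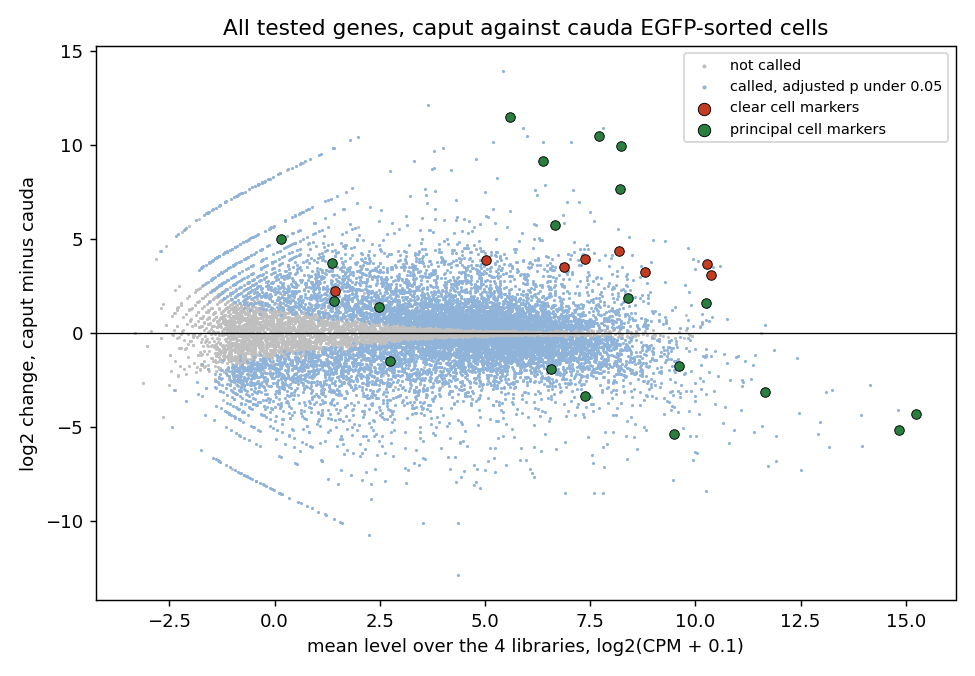
Change of each of the 15816 tested genes (log2, caput minus cauda) against its mean level over the 4 libraries as log2(CPM + 0.1); blue points were called, and large points are the clear cell (red) and principal cell (green) markers. All 8 clear cell markers lie above 0, between 2.25 and 4.39, and the principal cell markers lie on both sides.

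Scaling and gene length both move these changes. In caput 4.41% and 4.55% of the reads fell in the 10 most abundant genes, and in cauda 26.9% and 26.2%. With library totals in place of TMM the median change of all genes moved from 0.04 to 0.90, and the calls from 5363 and 5218 to 9501 higher in caput and 2564 in cauda, so every change below is relative to the bulk of the genes. Leaving the 50 most abundant genes out of the totals gave a median of 0.31, with 6747 and 4191 calls. Genes higher in caput had a median length of 4355 bases and genes higher in cauda 2542 bases. With the trend on length removed, 4721 and 5441 genes were called.

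The genes with the largest changes are given with predicted genes and the families of defence, acidification, lipocalin, keratin, ribosomal and respiratory genes left aside. In the direction of caput they included genes of surface and signalling proteins. Npnt, the matrix protein nephronectin, had 43.1 and 36.2 RPKM in caput and 0.230 and 0.167 RPKM in cauda (7.64 ± 0.23, adjusted p = 5.39e-08). Gpr64, an adhesion receptor known from the male tract, had 9.48 and 14.6 RPKM in caput and 0.0662 and 0.0620 RPKM in cauda (7.53 ± 0.34). Slc6a2, the noradrenaline transporter, had 4.64 and 3.05 RPKM against 0.00944 and 0.0265 RPKM (7.65 ± 0.42). Both caput libraries were far above both cauda libraries for each of these genes, and the rule of choice had required no overlap between the ends. Siglec15, a lectin that binds sialic acid, had 20.9 and 20.6 RPKM in caput and 0.0506 and 0.190 RPKM in cauda (7.35 ± 0.32). The urea transporter gene Slc14a1 had 9.04 and 7.08 RPKM and 0.0356 and 0.0778 RPKM (7.11 ± 0.29), and Tcte1, a gene of the sperm flagellum, 9.21 and 6.67 RPKM and 0.0190 and 0.107 RPKM (6.91 ± 0.42). Pde1c, a phosphodiesterase activated by calcium and calmodulin, had 2.27 and 1.66 RPKM in caput but 0 and 2 reads in cauda, a ratio of 492 with a 95% counting interval from 136 to 4068, which covers counting error only.

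Actg2 and Teddm1 were the genes of this group that differed most between the caput libraries. Actg2, the gamma actin of smooth muscle, had 17.6 RPKM in caput 1 and 70.8 RPKM in caput 2 against 0.0988 and 0.185 RPKM in cauda (8.24 ± 1.34, adjusted p = 0.00773), 6.91 without caput 2 and 8.92 without caput 1. Teddm1 had 100.4 and 247 RPKM in caput and 1.65 and 1.08 RPKM in cauda (6.998 ± 0.74), and 6.21 without caput 2. Of the fibroblast and smooth muscle markers 1 of 12 was higher in caput, and their part in the level of Actg2 was not tested. Principal cell genes also differed between the caput libraries, but not all in the same direction. Lcn8 (429.9 and 1439 RPKM in caput 1 and 2) and Lcn9 (284 and 715 RPKM) were higher in caput 2, and Aqp9 was lower there. The 20 principal cell markers summed to 10352 and 11689 CPM in caput 1 and 2. Changes that rest on few cauda reads also moved when 1 cauda library was left out: without cauda 2 the log2 change was 12.34 for Pde1c, 8.55 for Slc6a2, 8.56 for Siglec15, 7.78 for Slc14a1 and 8.59 for Tcte1, and without cauda 1 it was 7.91 for Pde1c, 6.74 for Siglec15 and 6.20 for Tcte1. All kept their direction and call.

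At the other end, Gata2, a zinc finger transcription factor, had 0.149 and 0.276 RPKM in caput and 44.7 and 40.2 RPKM in cauda (-7.66 ± 0.19, adjusted p = 4.33e-09). Upk2, a uroplakin of the bladder surface, had 0.304 and 0.551 RPKM against 69.3 and 57.7 RPKM (-7.22 ± 0.28), and P2rx1, a cation channel opened by extracellular ATP, 0.107 and 0.0621 RPKM against 11.5 and 14.3 RPKM (-7.20 ± 0.31). Gabrp, the pi subunit of the GABA receptor channel, had 0.0349 and 0.0304 RPKM in caput and 6.05 and 4.47 RPKM in cauda (-7.26 ± 0.38). For these 4 genes both cauda libraries were high. Treh, the enzyme that splits trehalose, had 0 and 0.192 RPKM in caput and 23.3 and 26.3 RPKM in cauda (-8.08 ± 0.68). Igsf11, an adhesion protein of the immunoglobulin superfamily, had 0 and 0.0378 RPKM and 5.41 and 4.02 RPKM (-7.95 ± 0.56), and the serine protease gene Prss27 0.118 and 0.0548 RPKM and 17.0 and 9.79 RPKM (-7.17 ± 0.46). Chga (chromogranin A of secretory granules), Azgp1 (a secreted zinc-binding glycoprotein) and Spns3 (a membrane carrier of the spinster family) completed the group at -7.65, -7.29 and -7.45.

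Chga and Azgp1 were uneven between the cauda libraries. Chga had 12.7 and 32.7 RPKM in cauda 1 and 2 and 0 and 0.237 RPKM in caput 1 and 2, and Azgp1 26.1 and 69.9 RPKM and 0.224 and 0.391 RPKM. Without cauda 2 they were at -6.79 and -6.41. Without caput 2 the change was -13.15 for Treh, -11.51 for Igsf11 and -12.84 for Chga, and without caput 1 it was -6.99 for Treh, -6.89 for Igsf11, -6.56 for Chga, -8.06 for Spns3 and -7.80 for Prss27. Each kept its direction and call.

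**Figure D2:**
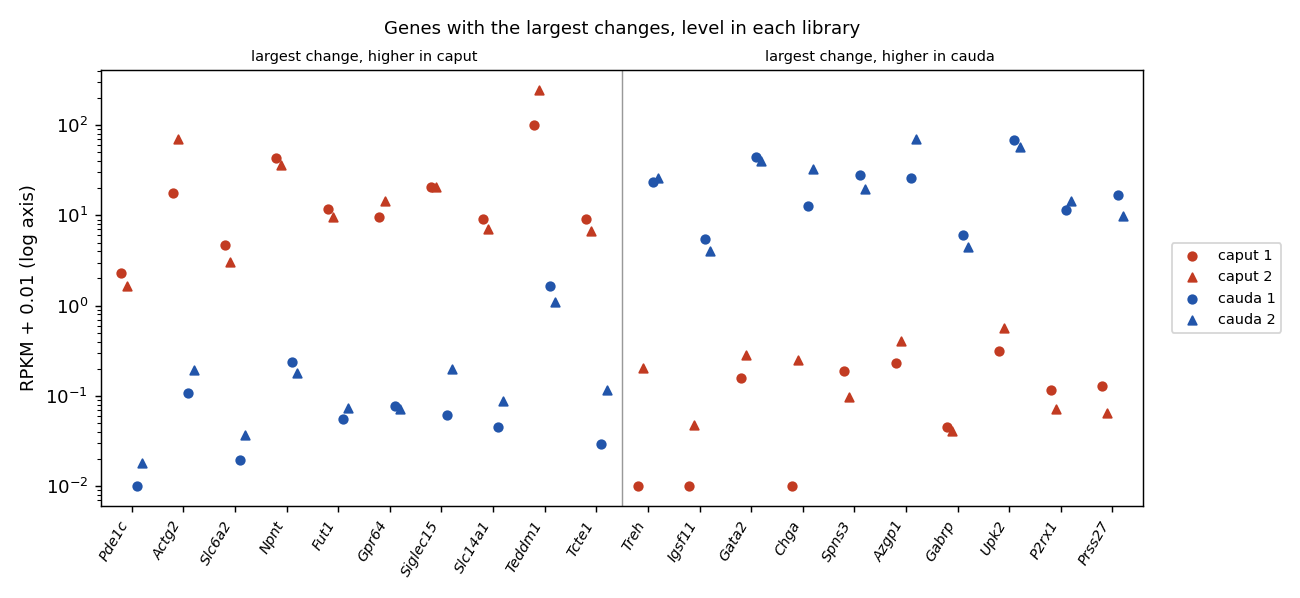
Level (RPKM + 0.01, log axis) in each of the 4 libraries of the 10 genes with the largest change in each direction; red points are caput, blue points cauda, circles library 1 and triangles library 2. The rule for choosing these genes required that the ends do not overlap, and Actg2, Teddm1, Chga and Azgp1 differ visibly between libraries of one end.

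Abundant genes are the 10 with the highest RPKM among those changed by at least 1 in each direction. The genes and families left aside above, and the cell type markers, were left out here too, so more abundant genes may exist. The rule also required at least 10 CPM and no overlap between the ends, so the libraries of the ends are separate by choice. Cd24a, a small surface glycoprotein, had the highest level of those higher in caput by this rule, at 1565 and 1546 RPKM in caput and 125 and 132 RPKM in cauda (3.60 ± 0.10). Nupr1, a stress-induced nuclear protein, had 464 and 431 RPKM and 14.7 and 10.8 RPKM (5.13 ± 0.15), a larger change than any clear cell marker. App, the amyloid precursor gene, had 450.3 and 412 RPKM in caput and 37.4 and 42.2 RPKM in cauda (3.44 ± 0.09), and its relative Aplp2 changed by 2.56 ± 0.08. The caput libraries were close to each other and well above the cauda libraries in each of these. Stap1, a signalling adaptor, changed by 3.87 ± 0.17, the paired membrane protein genes Tmem176b and Tmem176a by 2.18 ± 0.09 and 1.44 ± 0.08, the potassium leak channel Kcnk1 by 1.42 ± 0.08 and the lysosomal protease cathepsin L (Ctsl) by 1.01 ± 0.08.

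Itm2b, a membrane protein cut by furin, was the most abundant of the genes higher in cauda by this rule, at 2672 and 2671 RPKM in caput and 17784 and 17805 RPKM in cauda (-2.74 ± 0.10). Acbd7, of the acyl-CoA binding family, had 113 and 123.3 RPKM and 6447 and 6818 RPKM (-5.81 ± 0.10). Ceacam10, of the carcinoembryonic antigen family, had 121 and 142 RPKM in caput and 5309 and 4812 RPKM in cauda (-5.27 ± 0.12). Both cauda libraries were far above both caput libraries for these genes, for which the rule had required no overlap. Crip1 (a small LIM domain protein) changed by -2.57 ± 0.21, Cuzd1 by -3.11 ± 0.22, Anapc13 (a subunit of the anaphase-promoting complex) by -3.45 ± 0.08, the Ly6 family gene Ly6f by -5.13 ± 0.13 and ferritin heavy chain (Fth1) by -1.15 ± 0.08. Ly6e changed by -1.30 ± 0.24 (adjusted p = 0.00414), was not called under library totals (-0.43) or with no filter on low counts (-1.23), and differed between the cauda libraries.

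Outside the largest changes, 34 gene lists were read for direction. They hold 2850 members, a gene in several lists counted in each, of which 2243 passed the filter on low counts and were tested. Some passed only through the end where they are high, so the counts below describe the tested members and no more. Where a pair of counts is given, genes higher in caput come first and genes higher in cauda second unless stated. The lists with the highest medians were those of cell contacts, G protein signalling and receptor tyrosine kinases, and those with the lowest were xenobiotic metabolism, polyamine, nucleotide and one-carbon metabolism, and the proteasome.

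**Figure D3:**
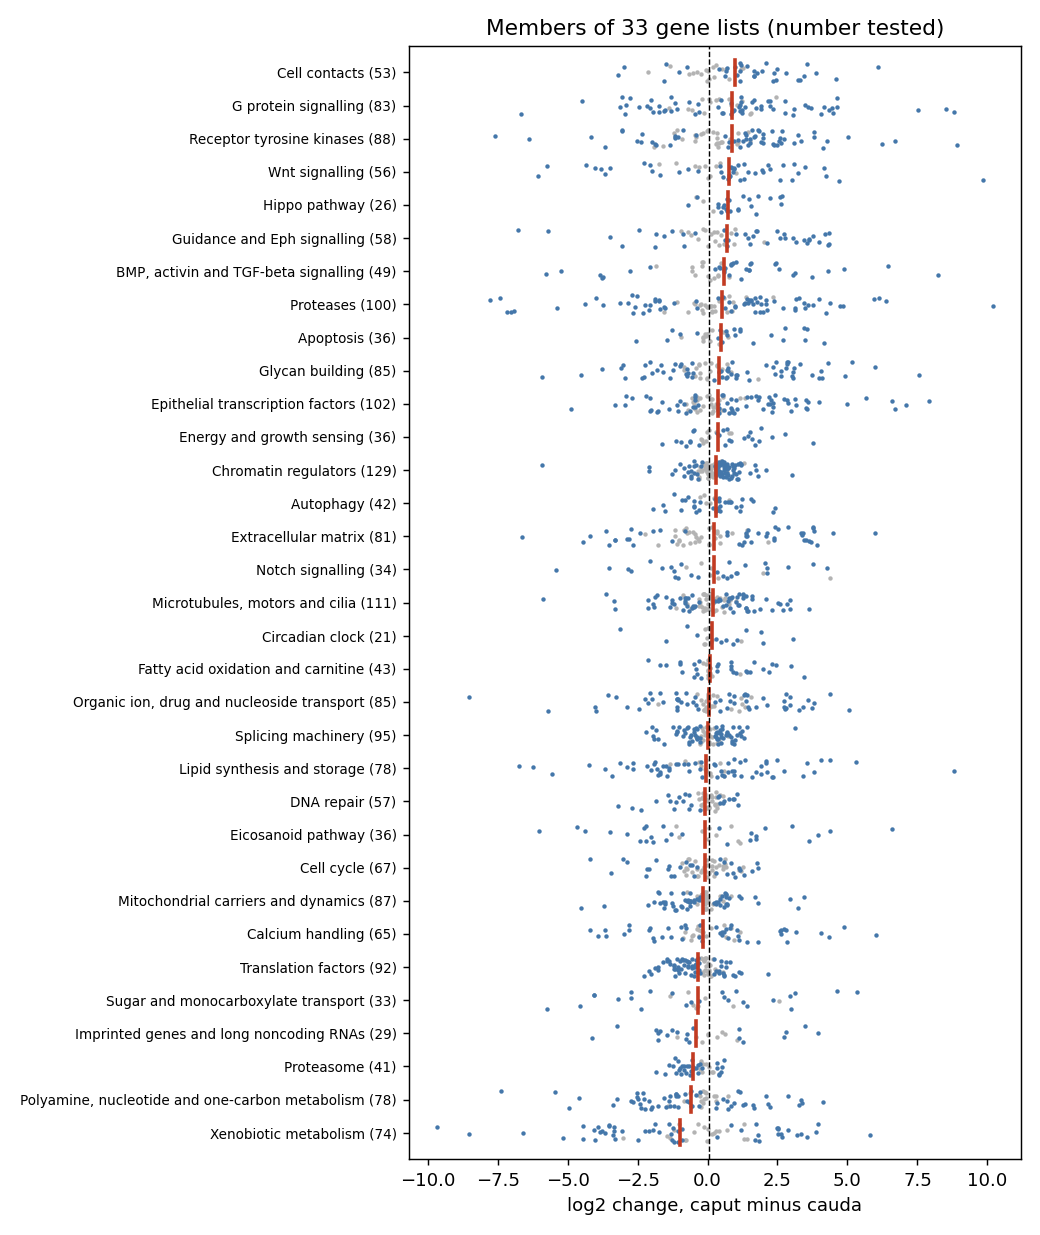
Changes (log2, caput minus cauda) of the tested members of 33 gene lists, ordered by their medians (red bars), with blue points called and grey points not called; the dashed line is the median of all tested genes, 0.04, and the number tested stands after each name. List medians run from -0.97 for xenobiotic metabolism to 0.99 for cell contacts, and every list spreads to both sides.

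Wnt proteins are short-range ligands that act through Frizzled receptors and beta-catenin. The ligands divided between the ends: 8 of 15 ligand and secretion genes were higher in caput and 6 in cauda. Wnt10a had 21.7 and 19.8 RPKM in caput and 1.09 and 0.509 RPKM in cauda (4.71 ± 0.45, adjusted p = 0.000198, and 5.35 without cauda 1), and Wnt6 had 8.20 and 5.97 RPKM and 1.44 and 1.61 RPKM (2.21 ± 0.22). In the other direction, Wnt7b had 0.379 and 0.387 RPKM in caput and 26.0 and 25.8 RPKM in cauda (-6.07 ± 0.14), and Wnt4 had 16.7 and 17.3 RPKM and 57.3 and 52.6 RPKM (-1.69 ± 0.09). The summed level of the ligand and secretion genes was 502 and 481 CPM in caput and 633 and 604 CPM in cauda, with different ligands in each. Of the receptors, 5 of 15 were higher in caput, Fzd6 by 1.95 ± 0.10, and 4 in cauda, a median of -0.09 that became 0.77 under library totals.

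Inhibitors of Wnt, secreted or in the membrane, were mostly higher in caput, 9 of 14 against 3 in cauda. Dkk3 had 72.3 and 72.9 RPKM in caput and 6.67 and 8.66 RPKM in cauda (3.24 ± 0.13), and Apcdd1, a membrane inhibitor, changed by 2.17 ± 0.17. Sfrp1, a decoy receptor, went the other way, with 0.631 and 1.62 RPKM in caput and 16.6 and 14.3 RPKM in cauda (-3.79 ± 0.43, and -4.61 without caput 2). Of the transducers, 10 of 12 were higher in caput and 1 in cauda. Beta-catenin (Ctnnb1) had 80.3 and 69.4 RPKM and 22.4 and 23.9 RPKM (1.69 ± 0.09), and Lef1, the DNA-binding partner it activates, 17.6 and 16.8 RPKM and 1.82 and 2.25 RPKM (3.07 ± 0.11). Sp5, a zinc finger gene known as a direct target of the pathway, had 59.0 and 51.3 RPKM in caput and 5.24 and 7.04 RPKM in cauda (3.16 ± 0.16). The median of the whole list was 0.75, above that of all genes, and stayed positive in each of the 16 alternatives.

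Notch signalling joins ligands of the Delta and Jagged families on one cell to Notch receptors on its neighbour, and in the kidney it helps to set the choice between principal and intercalated cells. Ligands and receptors ran in opposite directions. Dll4 had 5.90 and 4.08 RPKM in caput and 0.212 and 0.298 RPKM in cauda (4.28 ± 0.31), Dll1 5.10 and 3.59 RPKM and 0.407 and 0.226 RPKM (3.78 ± 0.41), and Jag1 2.29 and 2.47 RPKM and 0.337 and 0.316 RPKM (2.87 ± 0.21). Of the 5 ligands, 4 were higher in caput and 1 in cauda. All 4 receptors were higher in cauda, at low levels: Notch2 had 0.356 and 0.388 RPKM in caput and 1.40 and 0.906 RPKM in cauda (-1.63 ± 0.23), Notch1 changed by -1.05 ± 0.24, Notch3 by -1.20 ± 0.18 and Notch4 by -1.30 ± 0.29. Under library totals the receptors kept this direction but Notch1, Notch3 and Notch4 were no longer called, at -0.19, -0.34 and -0.44.

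Cleavage of the receptor releases its intracellular part, which turns on Hes and Hey genes. Adam10, the protease that cuts the receptor outside the cell, was higher in caput, with 46.7 and 42.3 RPKM there and 10.5 and 9.62 RPKM in cauda (2.14 ± 0.09). The target genes Hes1 and Heyl were higher in cauda: Hes1 had 19.9 and 21.3 RPKM in caput and 90.7 and 79.6 RPKM in cauda (-2.05 ± 0.12), and Heyl changed by -2.73 ± 0.41. Over the 10 nuclear effectors and targets, 2 were higher in caput and 4 in cauda, with a median of 0.10 that turned to -0.24 with the length trend removed.

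**Figure D4:**
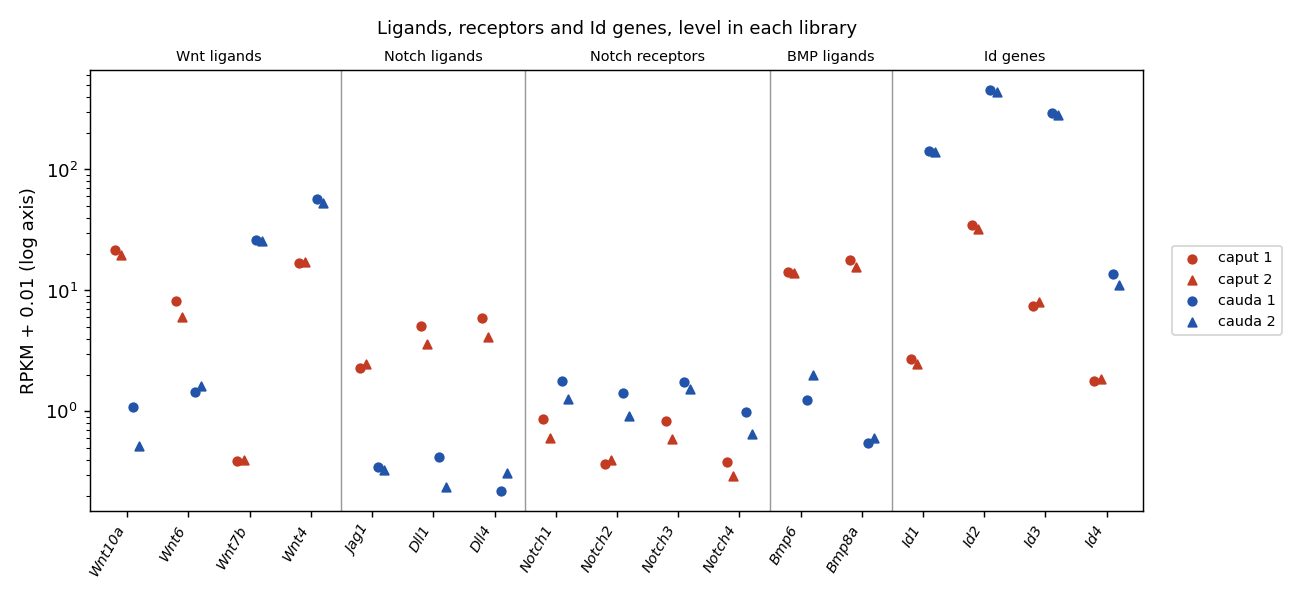
Level (RPKM + 0.01, log axis) in each library of Wnt ligands, Notch ligands and receptors, BMP ligands and Id genes; red points are caput, blue points cauda, circles library 1 and triangles library 2. The Notch and BMP ligands shown are higher in caput, while the Notch receptors and all 4 Id genes are higher in cauda.

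Bone morphogenetic proteins (BMP) signal through Smad proteins, and the Id genes, which encode inhibitors of basic helix-loop-helix transcription factors, are their best known targets. Ligands, inhibitors and latency proteins of this family were mostly higher in caput and the Id genes in cauda. Of 14 ligands, 9 were higher in caput and 2 in cauda. Bmp8a had 17.8 and 15.5 RPKM in caput and 0.534 and 0.591 RPKM in cauda (4.88 ± 0.19), and Bmp6 14.2 and 13.9 RPKM and 1.24 and 1.98 RPKM (3.12 ± 0.19). Among the inhibitors and binding proteins, 8 of 12 were higher in caput and 0 in cauda. Ltbp2, of the family that holds TGF-beta in the matrix, had 46.4 and 35.7 RPKM in caput and 0.472 and 0.461 RPKM in cauda (6.46 ± 0.16), Ltbp3 changed by 4.31 ± 0.14, and Twsg1, a secreted modulator of BMP, had 98.7 and 90.1 RPKM and 17.8 and 18.0 RPKM (2.40 ± 0.08). The receptor gene Acvr1 changed by 2.56 ± 0.27 and the transducer Smad3 by 2.45 ± 0.18. The transducers and targets gave 5 and 5 of 10, the former being Smad1, Smad2, Smad3, Smad4 and Smad5 and the latter Smad9 and the 4 Id genes.

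All 4 Id genes were higher in cauda. Id1 had 2.68 and 2.48 RPKM in caput and 143 and 139 RPKM in cauda (-5.77 ± 0.11, adjusted p = 1.17e-09), and Id3 7.41 and 7.95 RPKM and 294 and 284 RPKM (-5.23 ± 0.09, adjusted p = 9.58e-10). Id2, the most abundant, had 34.9 and 32.0 RPKM in caput and 454 and 433 RPKM in cauda (-3.73 ± 0.08), and Id4 1.79 and 1.83 RPKM and 13.7 and 10.99 RPKM (-2.76 ± 0.19). The libraries of an end were within a narrow range for every one of them. The changes of Id1 and Id3 were close to those of the principal cell markers Lcn12 (-5.34) and Cd52 (-5.17). Both are among the 8 principal cell markers higher in cauda, while 12 of the 20 were higher in caput. The part of principal cell RNA in the Id changes was not tested. The direction and call of the Id genes held in each of the 16 alternatives.

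Because the Id genes moved together, the 250 bases before their start sites are shown for the 3 of them found in the RefSeq promoter table (GRCm38.p6), read on the strand of the gene. Capitals mark GGCGCC, a site of the kind that BMP-activated Smad proteins bind. Id2 lies on the minus strand at chr12:25096093-25096342, Id3 on the plus strand at chr4:136143572-136143821 and Id4 on the plus strand at chr13:48260866-48261115.
Id2: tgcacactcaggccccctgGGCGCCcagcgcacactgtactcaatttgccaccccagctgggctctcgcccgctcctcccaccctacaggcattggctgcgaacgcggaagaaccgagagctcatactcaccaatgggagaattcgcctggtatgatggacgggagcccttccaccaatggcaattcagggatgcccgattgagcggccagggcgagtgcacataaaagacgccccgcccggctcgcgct
Id3: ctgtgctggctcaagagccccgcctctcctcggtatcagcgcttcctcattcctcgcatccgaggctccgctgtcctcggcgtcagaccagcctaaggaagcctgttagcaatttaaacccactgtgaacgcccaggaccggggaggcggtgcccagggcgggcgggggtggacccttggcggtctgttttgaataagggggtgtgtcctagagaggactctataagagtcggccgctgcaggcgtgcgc
Id4: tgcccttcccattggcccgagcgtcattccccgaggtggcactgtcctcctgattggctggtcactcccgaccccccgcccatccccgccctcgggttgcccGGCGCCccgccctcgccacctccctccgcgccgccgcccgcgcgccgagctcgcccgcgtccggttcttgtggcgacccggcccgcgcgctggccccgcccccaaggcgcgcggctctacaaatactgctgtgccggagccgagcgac
GGCGCC, which reads the same on both strands, occurred once in the window of Id2 and once in that of Id4, and is held by 9.59% of all 32851 promoter windows of this length. GTCTAG and TGACGTCA, searched on both strands, were in none of the 3 windows (7.11% and 1.55% of all windows), and CAGCTG was in that of Id2 (13%). In the window of Id2 the matches of GGCGCC and CAGCTG do not overlap. The GC content was 62.8% for Id2 and Id3 and 75.6% for Id4, against a median of 52.4% over all windows. A match of letters is a description and does not show binding.

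Growth factors that act through receptor tyrosine kinases were more often higher in caput, with 20 of 36 ligands against 9 in cauda. Fgf1 had 15.6 and 15.6 RPKM in caput and 0.810 and 1.40 RPKM in cauda (3.82 ± 0.21), Tgfa, a ligand of the EGF receptor, 12.6 and 10.4 RPKM and 1.44 and 1.26 RPKM (3.09 ± 0.17), and Gas6, the ligand of the TAM receptors that govern uptake of dead cells, 43.1 and 50.2 RPKM and 7.74 and 7.47 RPKM (2.62 ± 0.11). Egf itself ran in the other direction, with 2.78 and 2.20 RPKM in caput and 8.23 and 9.92 RPKM in cauda (-1.86 ± 0.13), as did the neurturin gene Nrtn (-1.35 ± 0.11) and Kitl, the ligand of Kit (-3.07 ± 0.26), while Kit, one of the clear cell markers, was higher in caput by 3.51. Insrr, the insulin receptor-related receptor, is known as a sensor of alkaline pH outside the cell in the kidney's base-secreting cells. It had 12.0 and 8.56 RPKM in caput and 0.179 and 0.0970 RPKM in cauda (6.23 ± 0.31, adjusted p = 5.88e-07), beyond the range of the clear cell markers. The receptors Met (for hepatocyte growth factor), Fgfr1 and Ddr1 (for collagen) changed by 2.36 ± 0.13, 3.24 ± 0.17 and 2.50 ± 0.10. Of 31 receptors 13 were higher in caput and 5 in cauda, and with the length trend removed 11 and 9. Errfi1, a feedback inhibitor of the EGF receptor, had 50.8 and 45.9 RPKM in caput and 13.9 and 12.8 RPKM in cauda (1.86 ± 0.13).

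Rgs9 and Rgs11 belong to the class of regulators that shorten G protein signals and that need the beta subunit Gnb5 as a partner. Rgs11 had 67.4 and 72.3 RPKM in caput and 2.69 and 4.15 RPKM in cauda (4.35 ± 0.22), Rgs9 14.2 and 12.0 RPKM and 1.11 and 0.916 RPKM (3.70 ± 0.14), and Gnb5 21.1 and 17.8 RPKM and 1.95 and 2.67 RPKM (3.07 ± 0.16). All 3 lay within the range of the clear cell markers. Over all regulators of this kind, 13 of 20 were higher in caput and 3 in cauda. Gamma subunits were higher at opposite ends: Gng4 had 59.4 and 47.0 RPKM in caput and 2.92 and 3.50 RPKM in cauda (4.05 ± 0.17), and Gng5 29.2 and 30.8 RPKM and 221 and 240.0 RPKM (-2.94 ± 0.08).

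Cyclic AMP drives proton secretion in clear cells, and phosphodiesterases end that signal. Pde1a, activated by calcium, had 53.9 and 54.1 RPKM in caput and 3.92 and 5.12 RPKM in cauda (3.58 ± 0.12), and Pde4b, specific for cyclic AMP, 4.92 and 4.17 RPKM and 0.340 and 0.463 RPKM (3.49 ± 0.18). Pde8b, which also splits cyclic AMP, was higher in cauda (-1.54 ± 0.09). Of 20 phosphodiesterases 9 were higher in caput and 6 in cauda. Among the adhesion receptors, Gpr116 had 39.7 and 37.3 RPKM in caput and 1.503 and 1.89 RPKM in cauda (4.50 ± 0.12). Gpr128 had 0.0656 and 0.102 RPKM and 8.53 and 8.84 RPKM (-6.68 ± 0.29), and Cd97, a receptor of leukocytes and epithelia, 8.55 and 5.41 RPKM and 60.6 and 56.0 RPKM (-3.06 ± 0.22). Thus both ends expressed adhesion receptors, with 10 of 19 higher in caput and 6 in cauda.

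Calcium handling gave 25 and 21 of 65 (median -0.18, and 0.68 under library totals), with channels of different kinds at the ends. Trpv6, the epithelial calcium uptake channel, had 7.91 and 6.50 RPKM in caput and 107 and 109.9 RPKM in cauda (-3.91 ± 0.11). The relative Trpv4, opened by swelling and stretch, had 12.5 and 11.04 RPKM and 1.54 and 1.09 RPKM (3.17 ± 0.16). Mcoln3, a channel of endosomes that is inhibited by luminal acid, had 11.9 and 10.6 RPKM in caput and 0.0338 and 0.301 RPKM in cauda (6.03 ± 0.46, 8.32 without cauda 2 and 5.23 without cauda 1). The uptake channel was thus the more abundant in cauda and the others in caput. Itpr2, the release channel of the endoplasmic reticulum, changed by 2.80 ± 0.11, and Atp2a3, the pump that refills that store, had 21.4 and 18.3 RPKM and 0.663 and 0.672 RPKM (4.89 ± 0.14). The plasma membrane pumps Atp2b4 (-3.67 ± 0.16) and Atp2b3 (-2.10 ± 0.29) were higher in cauda, as was the voltage-gated channel gene Cacna1d (-2.80 ± 0.21). Calreticulin (Calr), which binds calcium in the endoplasmic reticulum, had 169.5 and 165 RPKM in caput and 672 and 725 RPKM in cauda (-2.06 ± 0.08).

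Prostaglandins are lipid signals made from membrane fatty acids. Ptgs1, the cyclooxygenase that makes the precursor of all prostaglandins, had 38.3 and 41.8 RPKM in caput and 221 and 207 RPKM in cauda (-2.42 ± 0.08), and the phospholipase gene Pla2g12a 61.2 and 53.6 RPKM and 256 and 267 RPKM (-2.19 ± 0.09). Ptges, the synthase of prostaglandin E, changed by -1.31 ± 0.08. Synthesis genes were higher in cauda in 11 of 24 cases and in caput in 6. The median of the whole pathway was -0.09 and turned to 0.77 under library totals. Breakdown and transport genes gave 2 and 3 of 5. Hpgd, the enzyme that inactivates prostaglandins, had 14.5 and 14.5 RPKM in caput and 338 and 405 RPKM in cauda (-4.68 ± 0.11), Ptgr1, which acts after it, 0.770 and 1.12 RPKM and 64.6 and 58.6 RPKM (-6.04 ± 0.20), and the prostaglandin uptake carrier Slco2a1 2.63 and 3.27 RPKM and 23.3 and 19.7 RPKM (-2.87 ± 0.38). The exporter Abcc4, which also carries cyclic AMP out of cells, was higher in caput (4.39 ± 0.39, and 5.12 without cauda 2). Receptors were higher in caput in 4 of 7 cases and in cauda in 1; Ptger4 had 4.91 and 3.85 RPKM in caput and 0.998 and 1.10 RPKM in cauda (2.06 ± 0.17).

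Guidance cues, known from axons and also used by epithelia, had 28 of 58 genes higher in caput and 12 in cauda, with a median of 0.71. Those named here are all higher in caput. The semaphorin Sema3b had 36.1 and 31.9 RPKM in caput and 3.83 and 4.43 RPKM in cauda (3.04 ± 0.11), Sema4c changed by 4.31 ± 0.21, the semaphorin receptor Plxna4 by 4.20 ± 0.20 and the ephrin receptor Ephb4 by 3.56 ± 0.32.

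The Hippo pathway, which restrains growth by holding the coactivator Yap out of the nucleus, was the list with the largest share of members higher in caput, 21 of 26, with 2 higher in cauda. The kinase gene Taok3 changed by 2.68 ± 0.12, and the target genes Ctgf and Cyr61 by 2.21 ± 0.12 and 1.72 ± 0.11. Cyr61 had 135 and 127 RPKM in caput and 38.6 and 40.8 RPKM in cauda, and Ctgf 19.9 and 18.5 RPKM and 4.35 and 3.93 RPKM. With the length trend removed the counts were 14 and 2.

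The circadian clock is a loop of activators and repressors that drives output factors. Activators were higher in caput in 4 of 6 cases, among them Npas2 (1.99 ± 0.25) and Rora (1.39 ± 0.14), and in cauda in 0. Repressors gave 5 and 1 of 12, with a median of 0.07 that turned to -0.13 with the length trend removed. The output factors, transcription factors with a PAR domain that are driven by the clock, were higher in cauda in 3 of 3 cases, but 1 of them, Tef, was higher in caput under library totals. Hlf had 0.401 and 0.482 RPKM in caput and 3.85 and 3.83 RPKM in cauda (-3.12 ± 0.14), and Dbp 6.48 and 5.72 RPKM and 18.3 and 16.1 RPKM (-1.50 ± 0.12). The repressor gene Bhlhe40 had 128 and 114 RPKM and 30.3 and 34.4 RPKM (1.90 ± 0.13), and Csnk1e, a kinase that marks Period proteins, changed by 3.06 ± 0.18. The median of all 21 clock genes was 0.18 and turned to -0.11 with the length trend removed; the hour at which tissue was taken is not given in the sources used here.

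Transcription factors of epithelia were higher in caput in 48 of 102 cases and in cauda in 25 (median 0.39, and with the length trend removed 39 and 31, median 0.009). The Klf and Sp group gave 12 and 5 of 20: Klf6 had 83.7 and 83.0 RPKM in caput and 23.1 and 19.05 RPKM in cauda (1.98 ± 0.12), Klf10 changed by 2.40 ± 0.12 and Klf4 by 2.33 ± 0.24, while Klf15 was higher in cauda (-1.36 ± 0.11). In the Ets group, with 12 of 18 higher in caput and 1 in cauda, Ets2 had 47.2 and 42.9 RPKM in caput and 4.58 and 5.71 RPKM in cauda (3.13 ± 0.11). Sox9, a factor of duct epithelia, had 25.1 and 25.5 RPKM and 7.71 and 9.60 RPKM (1.54 ± 0.15), and Runx1 changed by 4.98 ± 0.38. Among homeobox and paired-box genes the counts were 10 and 11 of 29 (median 0.15, and -0.06 with the length trend removed), with Msx1 higher in caput (2.21 ± 0.26) and Irx1 (-3.30 ± 0.33) and Lhx6 (-2.05 ± 0.08) higher in cauda. Pax2, which patterns the Wolffian duct from which the epididymis forms, had 2.32 and 2.22 RPKM in caput and 9.91 and 8.91 RPKM in cauda (-2.05 ± 0.13). Tfap2b and Myb were also higher in cauda (-1.80 ± 0.12 and -2.95 ± 0.29).

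Smarca1, the ATPase of the NURF remodelling complex, had the smallest adjusted p of the chromatin regulators higher in cauda, with 1.10 and 1.19 RPKM in caput and 65.1 and 72.5 RPKM in cauda (-5.91 ± 0.11, adjusted p = 1.17e-09). Smarcd3, a subunit of the BAF remodelling complex, had 34.4 and 33.0 RPKM and 135 and 149.8 RPKM (-2.08 ± 0.08), and Hdac6, the cytoplasmic deacetylase of tubulin, 27.6 and 18.6 RPKM and 91.8 and 105 RPKM (-2.09 ± 0.20). These 3 genes were high in both cauda libraries. In the other direction the Polycomb gene Cbx2 changed by 3.02 ± 0.26, Hdac4 by 1.79 ± 0.13, the BAF subunit Smarcc2 by 1.52 ± 0.09 and the DNA methyltransferase Dnmt3a by 1.14 ± 0.16. Of 129 genes 57 were higher in caput and 21 in cauda (median 0.29), and with the length trend removed 24 and 47 (median -0.11), so the direction of this list turned with that setting.

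Translation factor and proteasome genes were called more often as higher in cauda than as higher in caput, but under library totals the counts of both lists turned. Of 92 translation factors and tRNA synthetases, 49 were higher in cauda and 18 in caput, with a median of -0.33 that became 0.53 under library totals. Elongation and release factors gave 10 of 11 higher in cauda and 1 in caput. Eef1a1, which brings tRNA to the ribosome, had 109 and 109 RPKM in caput and 376 and 373 RPKM in cauda (-1.78 ± 0.07), and Eef2, which moves the ribosome along, 131 and 118 RPKM and 339 and 347 RPKM (-1.46 ± 0.08). The initiation factor gene Eif3f changed by -2.04 ± 0.07 and Wars, the tryptophan synthetase that interferon also induces, by -2.10 ± 0.09. Repressor and variant cap-binding genes were among those higher in caput: Eif4ebp1, an inhibitor of initiation under mTOR control, changed by 1.13 ± 0.14 and Eif4e3 by 2.18 ± 0.19.

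The proteasome, which degrades ubiquitin-marked proteins, had 26 of 41 genes higher in cauda and 7 in caput. In the core particle these were 13 and 1 of 16, at a median of -0.88 (-0.02 under library totals and -0.27 with the length trend removed). Psma7 had 99.1 and 104 RPKM in caput and 298 and 281 RPKM in cauda (-1.51 ± 0.08), Psmb4 97.8 and 94.7 RPKM and 241 and 217 RPKM (-1.25 ± 0.08), and the assembly factor Psmd9 changed by -1.83 ± 0.08. For the whole list the median of -0.51 turned to 0.35 under library totals, with 6 genes higher in cauda and 26 in caput. The splicing list gave 35 and 33 of 95 (median 0.02, and -0.07 with the length trend removed), with small nuclear ribonucleoprotein genes such as Snrpd2 (-1.95 ± 0.10) and Lsm4 (-1.91 ± 0.09) higher in cauda and regulators such as Srsf5 (1.21 ± 0.08) and Mbnl2 (1.22 ± 0.07) higher in caput.

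Genes of lysosomal nutrient sensing were higher in caput in 8 of 16 cases and in cauda in 5. Rragd, a GTPase that recruits mTOR to lysosomes, had 18.1 and 17.0 RPKM in caput and 1.23 and 1.34 RPKM in cauda (3.77 ± 0.12). Tfeb, the transcription factor of lysosome and autophagy genes, had 12.4 and 11.01 RPKM and 2.41 and 2.04 RPKM (2.40 ± 0.13), and Flcn, which controls Tfeb through Rragd, 13.7 and 14.2 RPKM and 3.52 and 4.28 RPKM (1.84 ± 0.14). These 3 partners thus all stood higher in caput. Deptor, an inhibitor of mTOR, changed by 2.78 ± 0.11, while Lamtor2, part of the anchor on the lysosome, was higher in cauda (-1.61 ± 0.07). Autophagy genes gave 21 and 14 of 42, and with the length trend removed 13 and 19, the median going from 0.28 to -0.07. Map1lc3a, the membrane mark of autophagosomes, had 180.0 and 178 RPKM in caput and 569.6 and 497 RPKM in cauda (-1.58 ± 0.09), and Atg4a, the protease that prepares it, and Wdr45 changed by -1.52 ± 0.08 and -1.96 ± 0.09.

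Regulators of apoptosis were higher in caput in 17 of 36 cases and in cauda in 5, on both the survival and the death side. Bcl2, the survival gene, had 37.6 and 31.6 RPKM in caput and 1.73 and 2.17 RPKM in cauda (4.15 ± 0.14). The death genes Bik, Bbc3 and Bid changed by 3.48 ± 0.15, 3.56 ± 0.21 and 2.76 ± 0.14, with Bik at 83.0 and 82.6 RPKM in caput and 6.20 and 8.60 RPKM in cauda. Bad and the death receptor Fas were higher in cauda (-1.46 ± 0.08 and -2.56 ± 0.19). Cell cycle genes gave 13 and 18 of 67, 46.3% called beside 66.9% of all genes, with a median of -0.11 that turned to 0.75 under library totals. Mki67, present in dividing cells, had 0.0904 and 0.129 RPKM in caput and 0.468 and 0.477 RPKM in cauda (-2.11 ± 0.39). Ccnd2 had 9.83 and 10.2 RPKM in caput and 74.5 and 89.7 RPKM in cauda (-3.03 ± 0.13), the inhibitor Cdkn1a changed in the same direction (-1.83 ± 0.13) and Cdk2 in the other (1.59 ± 0.12). DNA repair genes gave 10 and 15 of 57 (median -0.09, and 0.77 under library totals), with Xpc, which finds damaged DNA, at 1.05 ± 0.09, and the repair genes Polb and Mgmt at -1.21 ± 0.11 and -2.69 ± 0.32.

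Polyamines are made from ornithine and are abundant in semen and the male tract. Their genes were higher in cauda in 9 of 14 cases and in caput in 2. Odc1, the first enzyme, had 11.7 and 11.6 RPKM in caput and 70.7 and 75.6 RPKM in cauda (-2.65 ± 0.08, adjusted p = 1.2e-08), and Srm, which makes spermidine, 30.5 and 28.9 RPKM and 115 and 120.5 RPKM (-1.99 ± 0.08). Of the return path, Sat1, which acetylates polyamines, had 116 and 118 RPKM in caput and 659 and 703 RPKM in cauda (-2.54 ± 0.09), and the oxidase Smox changed by -2.29 ± 0.08. The median of -1.34 stayed negative under library totals, at -0.48.

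Folate, methionine and serine metabolism, which supplies one-carbon units, had 18 of 30 genes higher in cauda and 8 in caput (median -1.08, and -0.23 under library totals). Cbs, which joins homocysteine and serine, had 3.61 and 3.68 RPKM in caput and 151 and 169 RPKM in cauda (-5.46 ± 0.10, adjusted p = 1.17e-09). Psph, the last step of serine synthesis, had 34.4 and 34.5 RPKM and 355 and 370.0 RPKM (-3.40 ± 0.09), and the proton-coupled folate carrier Slc46a1 12.0 and 9.70 RPKM and 69.0 and 74.2 RPKM (-2.72 ± 0.11). Mitochondrial folate enzymes moved likewise, Mthfd2 by -1.76 ± 0.07 and Mthfd1l by -2.52 ± 0.12, as did Gnmt, which uses up the methyl donor (-2.01 ± 0.08). Shmt1, the cytosolic enzyme that draws one-carbon units from serine, was higher in caput, with 4.31 and 3.75 RPKM there and 0.544 and 0.561 RPKM in cauda (2.86 ± 0.20), and so was Tcn2, the carrier protein of vitamin B12 in plasma (1.65 ± 0.07). In nucleotide synthesis Cad, which starts pyrimidines, had 29.0 and 28.03 RPKM in caput and 271 and 263 RPKM in cauda (-3.23 ± 0.08) and Prps2 changed by -2.48 ± 0.10, while Adssl1, the adenylosuccinate synthase of muscle, had 89.1 and 95.7 RPKM and 4.16 and 6.38 RPKM (4.13 ± 0.17).

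**Figure D5:**
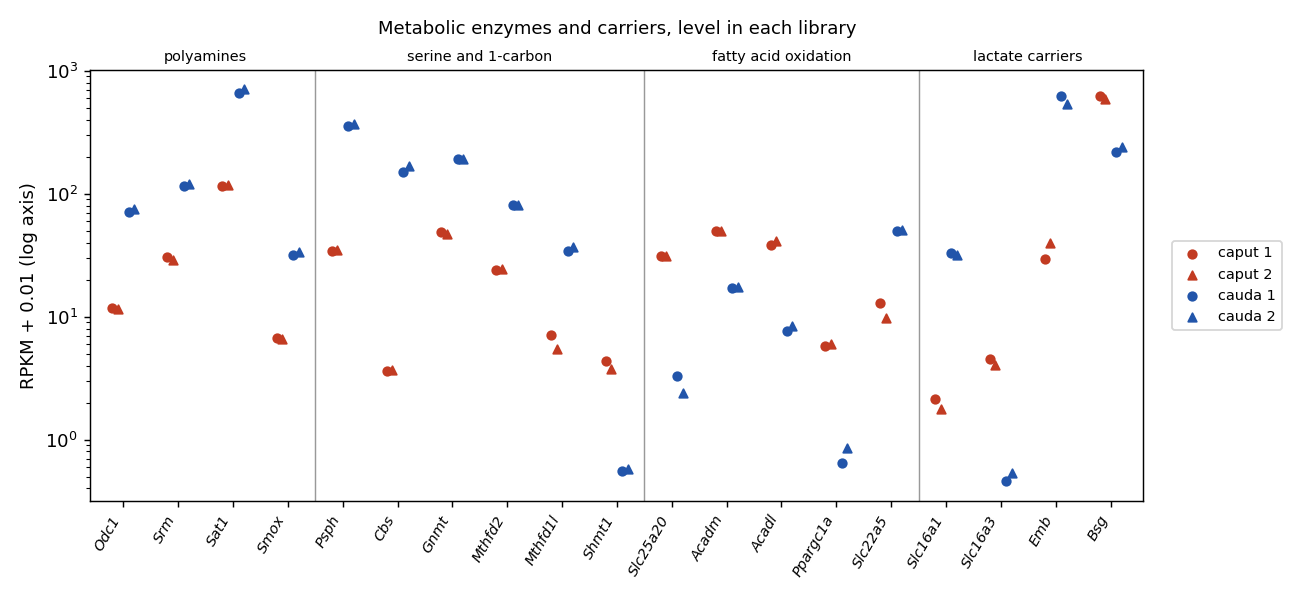
Level (RPKM + 0.01, log axis) in each library of genes of polyamine, serine and one-carbon metabolism, fatty acid oxidation and lactate transport; red points are caput, blue points cauda, circles library 1 and triangles library 2. The polyamine enzymes shown and the serine and one-carbon enzymes shown other than Shmt1 are higher in cauda. The fatty acid oxidation genes shown other than Slc22a5 are higher in caput.

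Fatty acid oxidation and carnitine genes gave 18 and 12 of 43, with a median of 0.09, near that of all genes. Slc25a20, which carries acylcarnitine into mitochondria, had 31.3 and 30.9 RPKM in caput and 3.28 and 2.37 RPKM in cauda (3.46 ± 0.16). Acadl, the long-chain dehydrogenase, had 38.3 and 40.9 RPKM in caput and 7.65 and 8.45 RPKM in cauda (2.30 ± 0.13), and Acadm, its medium-chain relative, 49.5 and 49.96 RPKM and 17.1 and 17.5 RPKM (1.52 ± 0.08). These enzymes of the first step of each cycle were both higher in caput, but beta oxidation genes as a group gave 12 and 9 of 32 (median 0.08). Ppargc1a, the coactivator that drives mitochondrial oxidation, had 5.78 and 6.00 RPKM and 0.638 and 0.842 RPKM (2.99 ± 0.20). Slc22a5, which brings carnitine into the cell, was higher in cauda, where luminal carnitine is known to be high, with 13.0 and 9.77 RPKM in caput and 49.6 and 50.8 RPKM in cauda (-2.14 ± 0.12).

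Lipid synthesis and storage genes gave 33 and 32 of 78 (median -0.05, and 0.81 under library totals), with different enzymes at the ends. Sptlc3, a subunit of the enzyme that starts sphingolipid synthesis, had 0.288 and 0.379 RPKM in caput and 36.1 and 35.5 RPKM in cauda (-6.75 ± 0.20, adjusted p = 1.04e-08). Fads3 and Fads2, desaturases, changed by -3.66 ± 0.09 and -2.01 ± 0.10, and Acly, which makes acetyl-CoA in the cytosol, by -1.77 ± 0.09. Among those higher in caput, the elongase gene Elovl5 had 88.0 and 85.0 RPKM in caput and 15.7 and 19.2 RPKM in cauda (2.31 ± 0.10), and Elovl7 18.7 and 18.5 RPKM and 1.33 and 1.34 RPKM (3.80 ± 0.11). Acss1, which activates acetate in mitochondria (3.40 ± 0.12), Agpat2 of triglyceride synthesis (2.73 ± 0.11) and ceramide kinase (Cerk, 4.37 ± 0.23) were also higher in caput.

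Lactate carriers need a partner protein at the membrane, basigin (Bsg) or embigin (Emb), and these were higher at opposite ends. Emb had 29.4 and 39.8 RPKM in caput and 622 and 539.8 RPKM in cauda (-4.07 ± 0.23), and Bsg 623 and 591 RPKM and 218 and 241 RPKM (1.41 ± 0.08). The carrier Slc16a1 had 2.14 and 1.77 RPKM in caput and 33.0 and 31.8 RPKM in cauda (-4.05 ± 0.11), and Slc16a3, known for lactate export, 4.52 and 4.01 RPKM and 0.449 and 0.524 RPKM (3.13 ± 0.19). All of these 4 genes were called, as were 66.9% of all tested genes. Monocarboxylate and citrate carriers were higher in caput in 8 of 17 cases and in cauda in 8, and glucose carriers gave 4 and 5 of 16 (median -0.37, and 0.49 under library totals). The median of the whole list was -0.34 and turned to 0.52 under library totals.

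Among carriers of organic ions and drugs, 31 of 85 were higher in caput and 28 in cauda (median 0.04, and -0.24 with the length trend removed). Slco1a5, a carrier of bile salts and steroid conjugates, had 252 and 242 RPKM in caput and 14.0 and 21.5 RPKM in cauda (3.79 ± 0.20), and Slco4a1, which takes up thyroid hormone, changed by 2.79 ± 0.15. Slc35f2 had 31.8 and 21.97 RPKM in caput and 315 and 322 RPKM in cauda (-3.56 ± 0.17). Of the ABC pumps, Abcc1 (a glutathione conjugate pump) and Abcg1 (a cholesterol exporter) changed by 2.93 ± 0.16 and 3.28 ± 0.29 and Abcb5 by -2.47 ± 0.29. In mitochondria, import genes were higher in cauda in 14 of 25 cases and in caput in 2, at a median of -0.62 that became 0.24 under library totals. With the length trend removed this median was -0.26. Tomm7 and Timm13 of the import machines changed by -1.91 ± 0.08 and -1.17 ± 0.08, and the dicarboxylate carrier Slc25a10 by -2.13 ± 0.11. The uncoupling protein gene Ucp2 and the fusion gene Mfn2 were higher in caput (1.70 ± 0.10 and 1.20 ± 0.14).

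Xenobiotic metabolism had the lowest median of the lists, -0.97 (-0.12 under library totals), with 34 of 74 genes higher in cauda and 20 in caput. Ces5a, a carboxylesterase known from the epididymis, had 213 and 174 RPKM in caput and 3257 and 3199 RPKM in cauda (-4.06 ± 0.13), the aldo-keto reductase Akr1c19 53.6 and 50.3 RPKM and 753 and 806 RPKM (-3.91 ± 0.12), and Sult2b1, which sulfates cholesterol, 9.86 and 9.47 RPKM and 137 and 128 RPKM (-3.78 ± 0.08). Cyp2r1, a vitamin D hydroxylase, was also higher in cauda (-3.05 ± 0.19). Cyp1a1 ran against the list: this target of the aryl hydrocarbon receptor had 54.0 and 53.0 RPKM in caput and 0.713 and 1.17 RPKM in cauda (5.82 ± 0.17, adjusted p = 1.19e-08), more than the clear cell markers. The receptor gene itself, Ahr, had 4.58 and 3.91 RPKM and 1.29 and 1.17 RPKM (1.79 ± 0.15), and Ephx1, an epoxide hydrolase, changed by 2.51 ± 0.08.

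Glycan genes were higher in caput in 40 of 85 cases and in cauda in 26. The fucosyltransferases Fut1, which makes the H antigen, and Fut8, which adds core fucose to N-glycans, were both higher in caput: Fut1 had 11.7 and 9.68 RPKM in caput and 0.0451 and 0.0634 RPKM in cauda (7.56 ± 0.63), and Fut8 33.3 and 31.0 RPKM and 3.59 and 3.97 RPKM (3.09 ± 0.11). Of the genes of sialic acid supply, Nans, which makes it, was higher in cauda (-2.26 ± 0.08), and so was Cmas, which activates it, with 17.0 and 16.6 RPKM in caput and 86.8 and 84.1 RPKM in cauda (-2.35 ± 0.07). St6galnac3, a sialyltransferase, and Galnt1, which starts O-glycans, moved the same way (-4.53 ± 0.29 and -1.80 ± 0.10), while the O-glycan branching gene Gcnt1 was higher in caput (4.04 ± 0.21). The sialic acid and fucose genes as a group gave 12 and 10 of 26 (median 0.03, and -0.13 with the length trend removed).

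Syndecans and glypicans are the surface core proteins of heparan sulfate, and 4 of them were higher in caput by alike amounts. Sdc1 had 48.2 and 48.2 RPKM in caput and 4.74 and 4.098 RPKM in cauda (3.45 ± 0.10), and Sdc4 50.05 and 47.2 RPKM and 3.96 and 3.86 RPKM (3.63 ± 0.10). Gpc1 had 50.4 and 47.0 RPKM and 3.73 and 3.48 RPKM (3.76 ± 0.11), and Gpc4 50.5 and 42.0 RPKM and 2.91 and 3.94 RPKM (3.75 ± 0.16). They lay between 42.0 and 50.5 RPKM in caput and between 2.91 and 4.74 RPKM in cauda, and their changes were inside the range of the clear cell markers. Ndst1 and Hs6st1, which place sulfate on the chains, changed by 2.84 ± 0.19 and 2.62 ± 0.17. Proteoglycans of all kinds were higher in caput in 8 of 17 cases and in cauda in 3.

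In the rest of the matrix, the basement membrane gene Col18a1 had 45.3 and 41.8 RPKM in caput and 11.3 and 9.16 RPKM in cauda (2.09 ± 0.18), Lamb2 23.1 and 20.9 RPKM and 4.24 and 3.53 RPKM (2.50 ± 0.14), and Lama5 and fibronectin (Fn1) changed by 3.42 ± 0.15 and 3.51 ± 0.15. Col27a1 had 3.71 and 3.77 RPKM and 0.0539 and 0.0631 RPKM (5.98 ± 0.22). Col3a1, a collagen of fibroblasts, went the other way at low level, with 0.115 and 0.614 RPKM in caput and 3.46 and 3.67 RPKM in cauda (-3.32 ± 0.73, adjusted p = 0.0162); the change was -4.94 without caput 2 and -2.53 without caput 1, and the call was lost without cauda 2 (-3.26). Fibroblast and smooth muscle markers, of which it is one, were higher in cauda in 6 of 12 cases. The matrix list gave 31 and 16 of 81, with a median of 0.24 that turned to -0.05 with the length trend removed.

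Contacts between cells had the highest median of the lists, 0.99, with 29 of 53 genes higher in caput and 6 in cauda. Desmosome genes gave 10 and 1 of 13, Pkp3 with 13.7 and 12.3 RPKM in caput and 1.31 and 1.07 RPKM in cauda (3.45 ± 0.17) and desmoplakin (Dsp) at 2.09 ± 0.11. E-cadherin (Cdh1) had 87.8 and 73.9 RPKM in caput and 31.0 and 29.3 RPKM in cauda (1.42 ± 0.10), and its cytoplasmic partner Ctnna1 79.1 and 75.4 RPKM and 22.7 and 22.6 RPKM (1.77 ± 0.07). The kidney cadherin Cdh16 and the adhesion protein Alcam changed by 2.47 ± 0.14 and 3.54 ± 0.13.

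Of the membrane and secreted serine proteases 13 and 5 of 26 were called. Prss23, a secreted serine protease, had 125 and 112 RPKM in caput and 1.82 and 2.00 RPKM in cauda (5.95 ± 0.11, adjusted p = 1.17e-09), and the membrane serine proteases St14 (matriptase) and Tmprss13 changed by 1.68 ± 0.11 and 4.23 ± 0.29. Mmp14, a membrane metalloprotease, had 75.9 and 73.6 RPKM in caput and 7.65 and 9.46 RPKM in cauda (3.13 ± 0.12), its inhibitor Timp3 changed by 3.47 ± 0.23, and the endothelin-converting enzyme Ece1 by 3.99 ± 0.12. Metalloproteases and their inhibitors gave 18 and 15 of 46, and peptidases and convertases 13 and 9 of 28. Among those higher in cauda, Mep1a, the meprin alpha subunit, had 0.699 and 1.28 RPKM in caput and 41.2 and 39.9 RPKM in cauda (-5.37 ± 0.23), Dpp4 6.65 and 6.54 RPKM and 27.1 and 28.2 RPKM (-2.07 ± 0.08), and the carboxypeptidase Cpm changed by -2.58 ± 0.12. Of 100 proteases and inhibitors 44 were higher in caput and 29 in cauda.

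Microtubule, motor and cilium genes gave 39 and 30 of 111. The neuronal kinesin Kif1a and the tubulin Tuba1a were higher in caput (3.64 ± 0.18 and 1.88 ± 0.11), and Tubb2a, the kinesin Kifc3 and Ift20, which sorts cargo to the cilium, in cauda (-1.92 ± 0.12, -3.36 ± 0.22 and -2.13 ± 0.08). Of imprinted genes and long noncoding RNAs, 7 of 29 were higher in caput and 13 in cauda (median -0.41, and 0.44 under library totals). Imprinted genes alone gave 6 and 6 of 16, and long noncoding RNAs 1 and 7 of 13. The imprinted genes Plagl1 (22.2 and 20.2 RPKM in caput, 1.58 and 2.23 RPKM in cauda, 3.47 ± 0.15) and Sgce (2.74 ± 0.19) were higher in caput and Slc38a4 (-1.77 ± 0.13) in cauda. Gas5, a noncoding host of small nucleolar RNAs, was higher in cauda (-1.85 ± 0.08), and Neat1, the RNA of paraspeckles, in caput (1.14 ± 0.18).

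Grouped by the root of their symbols, 166 families had at least 10 tested members. The families with the largest shares higher in caput were Inpp (inositol phosphatases, 9 of 10), Pcdhb (clustered protocadherins, 15 of 17), Dennd (activators of Rab GTPases, 10 of 12), Rgs (10 of 14) and Arhgef (guanine nucleotide exchange factors, 14 of 21). The largest shares higher in cauda were in Ndufb (10 of 10) and Ndufa (12 of 14), both subunits of respiratory complex I, Wfdc (protease inhibitors, 14 of 15), Rpl (ribosomal proteins, 62 of 69) and Mrps (mitochondrial ribosomal proteins, 25 of 29). The medians ran from 1.17 for Arhgef to 2.61 for Pcdhb, and from -1.05 for Mrps to -4.43 for Wfdc. The 5 families higher in cauda kept negative medians under library totals, from -0.20 for Mrps to -3.57 for Wfdc. With the length trend removed their medians ran from -0.43 for Ndufa to -3.67 for Wfdc, with 9 of 14 Ndufa and 42 of 69 Rpl genes higher in cauda. Those of the families higher in caput then ran from 0.74 for Arhgef to 2.41 for Pcdhb. Reads that aligned to several places were tallied apart from the genes. They were 33.1% and 33.5% of the counted records in caput and 36.8% and 36.7% in cauda. Reads that fit several members of a family or their pseudogenes may thus be missing from the counts. Their part in the family results was not tested, so counts in families of close copies such as Pcdhb and Rpl are uncertain.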

How the data were processed

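RNA of EGFP-sorted mouse epididymal cells, labelled as clear cells, was sequenced in 6 libraries. The authors deposited raw counts of reads in genes, 1 file a library, and RPKM values of all libraries beside gene lengths. Per the submitters' processing notes STAR, HTSeq and edgeR were used with build mm9, without versions, and per the file headers no annotation release is given. Reads were counted without strand, so overlapping genes on opposite strands cannot be told apart. Counts as deposited were tested with edgeR 4.0.16 under R 4.3.3 (quasi-likelihood F test, filterByExpr, TMM scaling), with all 6 libraries in 1 fit with region as factor. It was tested on simulated data. SE is the log2 change divided by the root of F, and p-values were adjusted over 15816 genes of 24903 with a read. RPKM in the text was computed from counts and the deposited lengths, and the log2 ratio of the authors' deposited RPKM (0.1 added) had r = 0.956 with the fitted change across these genes, which are not independent replicates.

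The genes with the largest changes, the abundant genes and the families were chosen by rule. The first were the 10 with the largest change in each direction with at least 10 CPM and no overlap. The abundant genes were the 10 with the highest RPKM among those changed by at least 1, under the same limits on level and overlap. Predicted genes, families covered by earlier results and the cell type markers were left out of both groups. The families were the 5 of at least 10 members with the largest share in each direction. From the lists, the plan was up to 3 called members a direction by adjusted p, and further members for roles without one. Several lists name more members than this, with a preference for genes of known role. In some, among them guidance, the Hippo pathway, cell contacts and the proteasome, the members named are all from the same direction. The members and lists were chosen with earlier results of these data known. Alternatives were DESeq2 1.42.0 (its Wald test and its size factors), library totals, other filters, only the 4 libraries, a replicate block, removal of the gene length trend (lowess on log length) and each library left out. Promoters came from a RefSeq table of GRCm38.p6, in which Id1 was not matched. The corpus comparisons were not analysed here. Of the 34 lists, 1 is not reported here.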

Additional observations from a re-analysis of the deposited data

How the results depend on the processing

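The settings that moved the counts most were those of scaling. With library totals 9501 genes were higher in caput and 2564 in cauda, 78.7% of the calls on the caput side, and 7927 calls were shared in direction with the 10581 reported. Without the 50 most abundant genes in the totals the caput side held 61.7%. The other alternatives stayed within 1.5 times the reported counts: between 4483 and 5730 genes were higher in caput and between 4191 and 5577 in cauda, apart from 6747 in caput with those 50 genes left out. Leaving out 1 library gave 4483 to 5233 genes higher in caput and 4402 to 5113 in cauda. Of the 270 genes named with values in the text, 265 kept their direction and call in all 16 alternatives. The others were Notch1, Notch3 and Notch4 under library totals (adjusted p by edgeR 0.469, 0.113 and 0.182), Ly6e under library totals (0.152) and with no filter (0.0504), and Col3a1 with no filter (0.0593), in the fit of 4 libraries (0.0596) and without cauda 2 (0.0502). The cause was not tested. Deviations from the region means of caput and cauda libraries with the same number had a correlation of 0.162, and the labels do not say what the number marks, so it was not taken as a pairing; with the replicate block 5498 and 5352 genes were called, 10507 of them shared in direction. No fit can leave out both cauda libraries, and 2 libraries a region limit how well the spread is known. Changes of genes with few reads at one end, such as Pde1c and Treh, are set by those reads.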
